A study of Mus musculus with 5 samples.

Results

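DNA methylation was described at 6 mouse genes of DNA methylation enzymes: the DNA methyltransferase genes Dnmt1, Dnmt3a and Dnmt3b and the TET dioxygenase genes Tet1, Tet2 and Tet3. Each gene was taken as 1 window of the mm9 genome, set by position and not by any measured value. Dnmt1 was read on chromosome 9 from 20708000 to 20760000, Dnmt3a on chromosome 12 from 3803000 to 3918000, and Dnmt3b on chromosome 2 from 153472000 to 153517000. Tet1 was read on chromosome 10 from 62264000 to 62346000, Tet2 on chromosome 3 from 133123000 to 133212000, and Tet3 on chromosome 6 from 83309000 to 83412000. The windows held 833 CpGs covered in at least 1 library, of which 766 were covered in all 5 libraries and are the CpGs described here, of 1030056 such CpGs on the autosomes.

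The libraries were made by enhanced reduced representation bisulfite sequencing (ERRBS) from bone marrow LSK cells, the lineage-negative Sca1+ cKit+ fraction that contains blood stem cells and multipotent progenitors. There were 2 libraries from animals with a targeted gene, called targeted libraries, and 3 from wild-type animals, all on a C57BL/6 background. The targeted libraries carry a heterozygous genotype label (+/-) while their titles name a knockout, so the number of targeted alleles is not settled. The titles of all libraries, wild type included, also carry the tag TET. What that tag stands for is not settled, and neither is whether the libraries share a Tet genotype. No treatment is listed, no age is stated for these animals, and the targeting is germ line per the series' design text. Whether replicate libraries are separate animals is not stated, so the p-values below reflect library-to-library spread that may be technical only. The assay measures DNA methylation and not expression, so the LSK surface markers were not checked.

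Dnmt1 copies methylation onto the new strand after replication, and Dnmt3a and Dnmt3b place methylation on CpGs that carry none. The TET enzymes oxidise methylcytosine to hydroxymethylcytosine, a step towards its removal. Bisulfite reads both forms as methylated, so the levels below are the sum of the 2. In blood stem cells DNMT3A and TET2 are known as the genes most often mutated in clonal haematopoiesis, and Dnmt3a is known to be transcribed both from a distal CpG-rich promoter and from an internal one that gives a shorter isoform.

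Each of the 6 genes has at least 1 CpG-dense promoter, and 4 promoter sequences are shown because each lies in or overlaps an unmethylated stretch described below, of which it is only a part. They are RefSeq sequences of GRCm38.p6, the 250 bases before an annotated start, written 5′ to 3′ on the gene's strand, with the CpGs measured in all 5 libraries in capitals. The distal Dnmt3a promoter is chr12:3806730-3806979 on the plus strand, the internal one chr12:3891494-3891743 on the plus strand, the Tet2 promoter chr3:133544391-133544640 on the minus strand and the Tet3 promoter chr6:83441679-83441928 on the minus strand.
Dnmt3a, distal promoter: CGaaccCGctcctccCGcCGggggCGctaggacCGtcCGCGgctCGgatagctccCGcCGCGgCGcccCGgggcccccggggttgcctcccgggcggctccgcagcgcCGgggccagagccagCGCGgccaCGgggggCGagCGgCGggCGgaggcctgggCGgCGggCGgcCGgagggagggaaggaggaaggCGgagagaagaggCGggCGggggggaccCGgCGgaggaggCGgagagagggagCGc
Dnmt3a, internal promoter: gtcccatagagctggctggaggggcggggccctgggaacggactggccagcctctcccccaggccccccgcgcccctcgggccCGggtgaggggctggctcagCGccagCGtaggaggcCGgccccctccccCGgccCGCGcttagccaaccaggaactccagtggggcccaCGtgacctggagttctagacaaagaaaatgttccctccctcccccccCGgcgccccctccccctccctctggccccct
Tet2 promoter: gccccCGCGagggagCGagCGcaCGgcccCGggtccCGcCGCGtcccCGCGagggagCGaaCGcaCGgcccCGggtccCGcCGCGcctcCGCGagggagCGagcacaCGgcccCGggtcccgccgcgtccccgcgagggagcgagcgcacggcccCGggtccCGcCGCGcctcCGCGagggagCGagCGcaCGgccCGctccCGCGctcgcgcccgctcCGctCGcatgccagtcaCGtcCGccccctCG
Tet3 promoter: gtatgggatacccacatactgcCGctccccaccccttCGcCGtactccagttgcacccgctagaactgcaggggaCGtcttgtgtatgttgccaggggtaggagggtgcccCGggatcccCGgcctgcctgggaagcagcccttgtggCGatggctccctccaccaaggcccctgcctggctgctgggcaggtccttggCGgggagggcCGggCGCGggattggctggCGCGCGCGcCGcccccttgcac

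These sequences were placed on the measured CpGs by the spacing of their CpGs alone, without converting coordinates. The sequence compared was the 300 bases from 250 before to 50 after the start. A placement was accepted when every covered CpG within them fell on a CpG of the sequence and at least 5 matched. It was found for 8 of the 10 starts that RefSeq lists for the 6 genes, with 9 to 46 covered CpGs matched in each. The pair that was not placed were the first and second of the Dnmt1 starts. Within these 300 bases Tet2 had 57 CpGs, more than 99.8% of 32544 RefSeq mouse promoters of the same length. The distal Dnmt3a promoter had 46 (more than 98.3% of promoters), Dnmt1 33, Dnmt3b 30, Tet3 22, the internal Dnmt3a promoter 18 and Tet1 17, against a median of 7 over all promoters. The MspI site CCGG, which reads the same on both strands and decides where the assay can look, was present in each of the 8, with 2 to 8 copies. The first and second Dnmt1 promoters, which were not placed, held 2 and 12 CpGs and 0 such sites. Over all promoters 53.0% held the site. Placement itself required covered CpGs, so its presence in each of the 8 does not set these genes apart. The Tet2 sequence is internally repeated, which can be read off its capitals: 78.5% of bases were equal at a shift of 42 bases. Its placement was nevertheless single, since at the next best shift, 84 bp away, 30 of 45 covered CpGs matched, against 46 of 46.

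Unmethylated stretches were defined as at least 5 neighbouring CpGs, each under 20% in the mean of all libraries, with neighbours at most 2000 bp apart. The windows held 7 of them, and these contained 524 of the 530 window CpGs under 20%. Their mean level never exceeded 1.57% in any library.

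Dnmt1, the maintenance enzyme, had 1 stretch, on chromosome 9 from 20756650 to 20757273, with 37 CpGs over 625 bp. Its mean level was 0.0756% and 0.122% in targeted libraries 1 and 2, against 0.166%, 0.0949% and 0.0784% in wild type. Each library had 5271 to 8125 reads summed over these CpGs. The groups overlapped. The third RefSeq start of Dnmt1, placed at 20757067, lay inside it, and the next covered CpG into the gene, 5984 bp away, was at 82.7%.

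Dnmt3a, the de novo enzyme, had the longest measured stretch among the 6 windows, although stretch lengths depend on which fragments were covered. Its distal stretch spanned 1755 bp, from 3806482 to 3808235 on chromosome 12, with 217 CpGs, against 1687 bp for the longer Tet3 stretch. It held 2 RefSeq starts, placed at 3806980 and 3807160. The nearest covered CpGs at 20% or more lay 8960 bp before and 6902 bp after this distal stretch, so its edges were not measured. The mean over its CpGs was 0.0585% and 0.132% in the targeted libraries, against 0.172%, 0.0475% and 0.0785% in wild type, so the groups overlapped there too. A second stretch lay 83.3 kb further on, from 3891577 to 3891966, with 13 CpGs over 391 bp around the internal start at 3891744. Here the level was 0.710% and 1.57% in the targeted libraries, against 0.997%, 0.246% and 0.996% in wild type. Each library had 891 to 1194 reads summed over the 13 CpGs. This internal promoter lies within the span of the long noncoding RNA gene Gm31623 in the same RefSeq table.

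Dnmt3b, the other de novo enzyme, had 1 stretch of 83 CpGs over 968 bp, from 153475152 to 153476118 on chromosome 2. The level was 0.0397% and 0.171% in the targeted libraries, against 0.0182%, 0.0735% and 0% in wild type. The 0% is 0 methylated of 10335 reads summed over the 83 CpGs, where 1 read counts at each CpG it covers. A limit of 0.0290% would hold only if these counts were independent, so the true limit is higher. Its start was placed at 153475185, near the upstream edge, and the nearest covered CpG upstream, 1370 bp away, was at 68.7%.

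Tet2 had 1 stretch of 61 CpGs over 666 bp, from 133207311 to 133207975 on chromosome 3, with its start at 133207354. The level was 0.0756% and 0.0497% in the targeted libraries, against 0.0376%, 0.0487% and 0.0927% in wild type. The nearest covered CpGs were 10066 bp into the gene, at 95.9%, and 10704 bp upstream, at 86.7%, so the edges of this region were not measured.

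Tet3 had 2 stretches, 13.4 kb apart on chromosome 6. The one at the RefSeq start, 83391303 to 83391923, had 41 CpGs over 622 bp at 1.40% and 0.702% in the targeted libraries, against 0.928%, 0.750% and 0.673% in wild type. Methylation in it was not spread evenly. In the promoter sequence above, the first and second measured CpGs from the 5′ end, 228 and 213 bases before the start at 83391672, stood at means of 6.23% and 6.48%. The third was at 1.69%, and the 18 measured CpGs from there to the end of the 300 bases had means of at most 0.389%. The stretch upstream of the gene, 83405360 to 83407045, had 72 CpGs over 1687 bp at 0.0682% and 0.183% in the targeted libraries, against 0.0603%, 0.0655% and 0.0977% in wild type. In the same RefSeq table the Tet3 start lies within the long noncoding RNA gene B230319C09Rik.

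Tet1 had no stretch inside its window, which ends 2652 bp short of one. That stretch, 62348652 to 62350045 on chromosome 10, had 40 CpGs over 1395 bp at 0.456% and 0.25% in the targeted libraries, against 0.298%, 0.291% and 0.522% in wild type. The Tet1 start was placed at 62350072, just beyond it. The Tet1 window therefore describes the gene body alone.

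**Figure D1:**
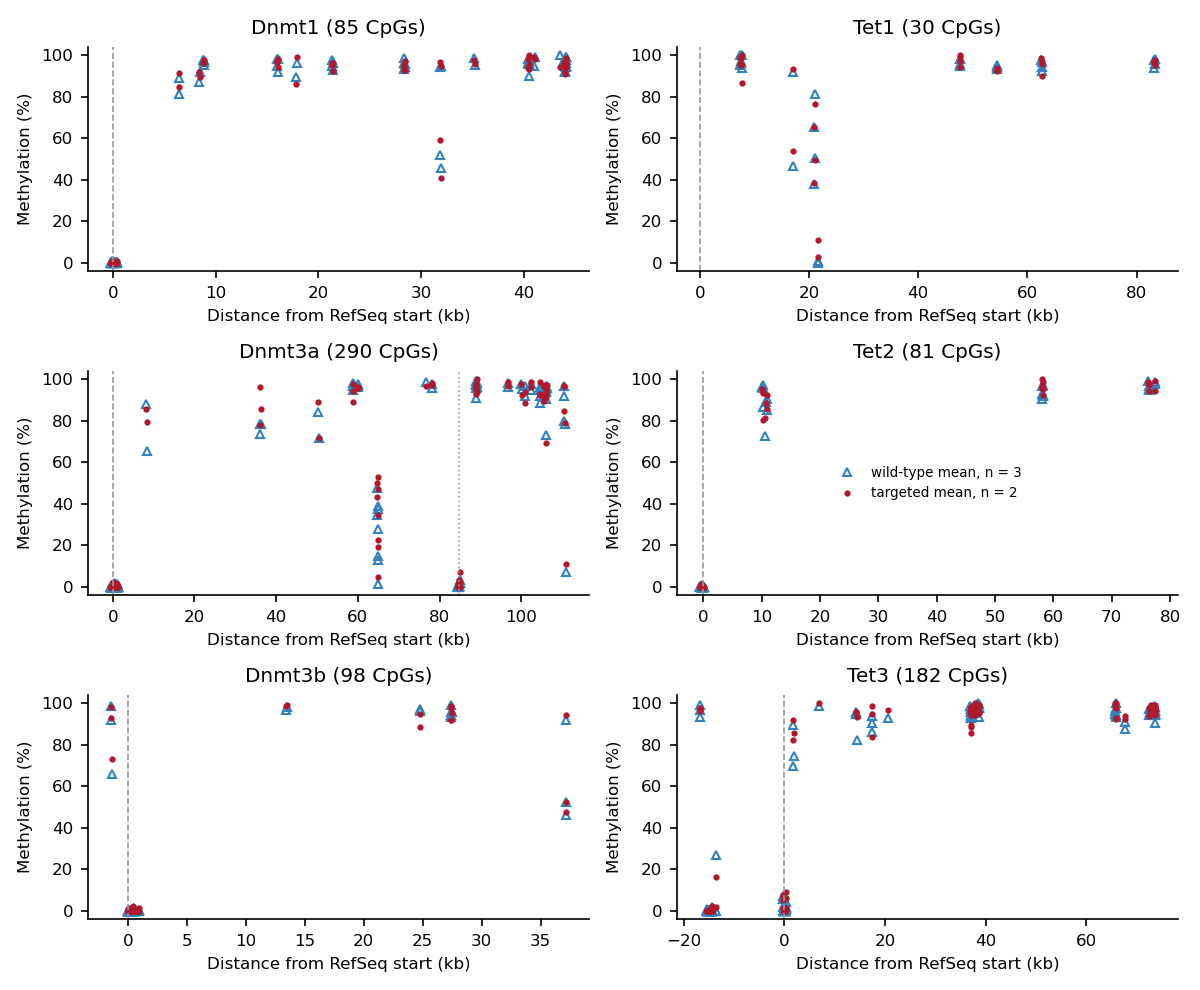
CpG methylation in percent (y axis) against distance from the first placed RefSeq start in kb (x axis, positive into the gene) for the 766 CpGs of the 6 windows. Blue triangles are wild-type means (n = 3), red dots targeted means (n = 2), dashed lines the starts and the dotted line the internal Dnmt3a start. CpGs lie near 0% at the starts, except in Tet1, whose window ends before its start. Elsewhere they lie mostly over 80%, apart from the upstream Tet3 stretch near 0% and a group of Dnmt3a CpGs between the 2 levels 64.8 kb into the gene.

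The mean level of a window went with the share of its CpGs that was unmethylated. Of the 766 CpGs, 530 (69.2%) were under 20%, 24 (3.13%) between 20% and 80%, and 212 (27.7%) over 80%, against 61.2%, 6.67% and 32.1% of autosomal CpGs. Of the CpGs under 20%, Dnmt3a had 234 of its 290, Dnmt3b 83 of 98, Tet2 61 of 81, Tet3 113 of 182, Dnmt1 37 of 85 and Tet1 2 of 30. In order of mean level, the wild-type libraries had Tet1 at 83.0% ± 1.12 (SD, n = 3), Dnmt1 at 52.7% ± 0.267, Tet3 at 35.8% ± 0.139, Tet2 at 23.0% ± 0.194, Dnmt3a at 17.1% ± 0.0316 and Dnmt3b at 13.4% ± 0.127. Each step of that order was larger than the SDs of both neighbours. It describes which fragments the assay covered as well as the genes: with the promoter stretch added, Tet1 had 70 CpGs at 35.8% ± 0.553, which could not be told from Tet3.

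Methylated CpGs stood at similar levels in the 6 genes. Window CpGs over 80% averaged, in the wild-type libraries, 96.0% ± 0.225 in Tet1, 95.8% ± 0.329 in Dnmt3b, 95.5% ± 0.307 in Tet3, 95.1% ± 0.533 in Dnmt1, 94.3% ± 0.102 in Dnmt3a and 94.0% ± 0.913 in Tet2. Neighbours in this order differed by less than the larger of their SDs, except Dnmt1 and Dnmt3a, at 95.1% and 94.3%. The median reads per CpG ranged from 49 in Tet1 to 183.5 in Dnmt3b over genes and libraries, so Tet1 values rest on the fewest reads.

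The targeted and wild-type libraries were first compared by the mean over all CpGs of a window, in which each CpG weighs the same. For Dnmt1 it was 52.7% in both targeted libraries, against 52.4%, 52.7% and 52.9% in wild type. For Dnmt3b it was 13.5% in both targeted libraries, against 13.6%, 13.4% and 13.3% in wild type. Tet1 had 83.9% and 82.8% against 82.8%, 82.0% and 84.2%. Tet2 had 23.2% in both targeted libraries against 23.2%, 22.9% and 22.9%. In these 4 genes the groups overlapped.

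In Dnmt3a and Tet3 the targeted pair lay above every wild-type library. Dnmt3a was at 17.6% and 17.2% against 17.0%, 17.1% and 17.1%, a difference of 0.329 points between 17.4% ± 0.281 (SD, n = 2) and 17.1% ± 0.0316 (SD, n = 3). Tet3 was at 36.3% and 36.0% against 35.7%, 35.9% and 35.7%, a difference of 0.363 points. The exact two-sided permutation test over the 10 assignments of libraries to groups gave p = 0.1 for Dnmt3a, the smallest this design allows, and 0.2 for Tet3. The same exact permutation test gave p = 1 for Dnmt1, 0.6 for Dnmt3b, 0.7 for Tet1 and 0.4 for Tet2. Over all autosomal CpGs the same measure was 35.1% and 34.4% in the targeted libraries, against 34.3%, 34.2% and 34.1% in wild type. That difference, 0.551 points (exact permutation p = 0.1), had the same direction and was larger than those of Dnmt3a and Tet3.

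**Figure D2:**
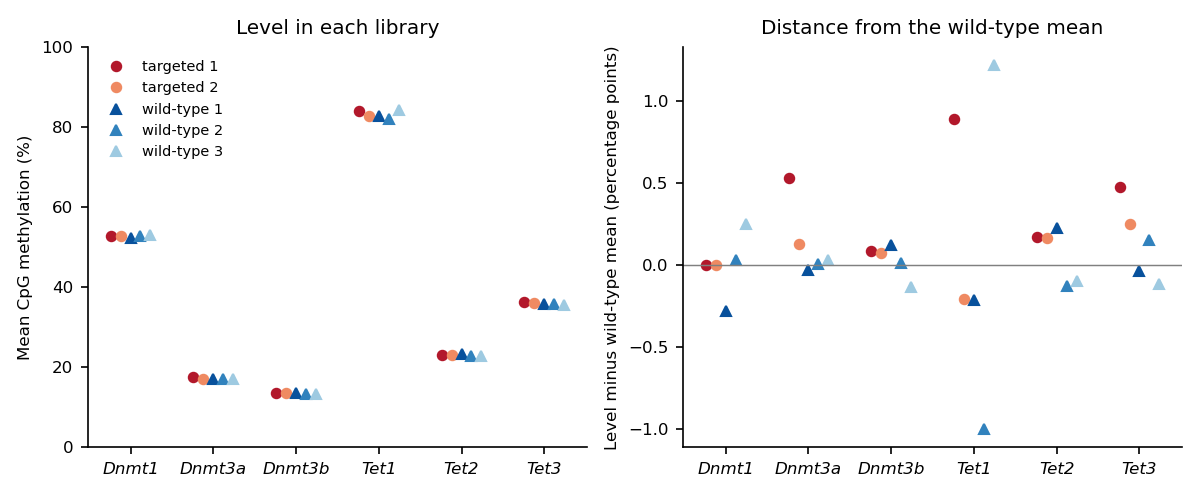
Left, mean CpG methylation in percent of each gene window in each library; right, each library's distance from the wild-type mean in percentage points. Red and orange circles are the 2 targeted libraries and blue triangles the 3 wild-type libraries; both circles lie above all triangles in Dnmt3a and Tet3 (differences of 0.329 and 0.363 points), and Tet1 has the widest spread.

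Targeted library 1 stood apart in how its reads were spread. The ratio of median reads at unmethylated window CpGs (under 20%) to those at methylated ones (over 80%) was 1.06 in that library. It was 2.13 in the other targeted library and 1.79, 1.97 and 1.37 in wild type. Weighted by reads, the Dnmt3a level was 18.7% in targeted library 1 and 9.45% in targeted library 2, against 9.91%, 9.77% and 13.5% in the wild-type libraries, so the targeted libraries lay on either side of the wild-type ones. The unweighted Dnmt3a difference came to 0.130 points without targeted library 1 and to 0.528 points without targeted library 2. The part of read distribution in the small differences above was not tested.

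Differences were then tested in tiles of 1000 bp with at least 3 CpGs, by edgeR's quasi-likelihood test on methylated and unmethylated reads. All 53 such tiles of the windows could be tested (Dnmt1 10, Dnmt3a 13, Dnmt3b 5, Tet1 7, Tet2 5, Tet3 13). A call required 10 points of difference and an adjusted p under 0.05 (Benjamini-Hochberg, over all 90368 autosomal tiles). By edgeR 0 of the 53 were called, against 0.00221% of autosomal tiles called higher and 0.0144% called lower by the same rule. By limma 0 of the 53 were called, and 0 of all tiles. At an unadjusted p under 0.05 by edgeR, 2 tiles were higher and 1 was lower, with 5.34% and 0.976% in the background, and limma gave 2 in either direction (background 6.48%). The targeted pair lay above every wild-type library in 7 of 53 tiles (13.2%, background 17.2%) and below in 5 (9.43%, background 5.23%). The median difference was 0.162 points over the 53 tiles and 0.287 points over all tiles tested.

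In the 12 tiles under 20%, which lie in the unmethylated stretches, the largest difference in either direction was 0.305 points. At levels this close to 0% a difference in points is bounded by the level itself, so it is not a measure of stability. Of the 35 tiles over 80%, 19 were higher and the others lower in the targeted libraries.

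**Figure D3:**
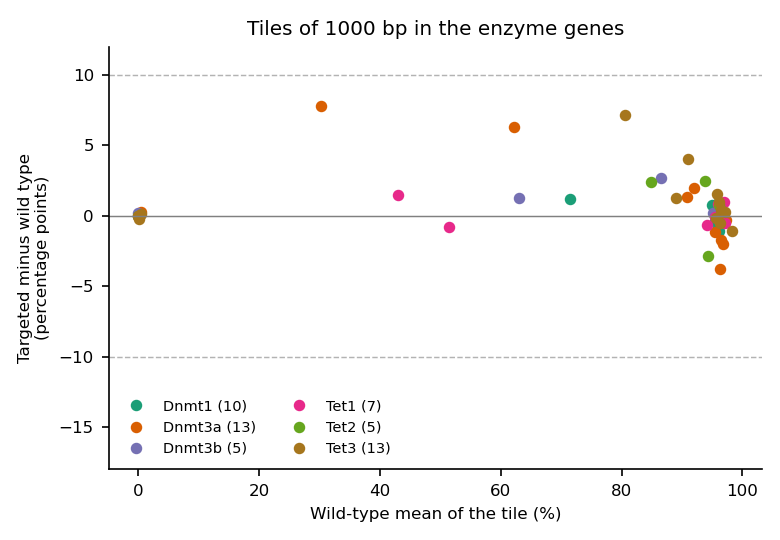
Targeted minus wild-type methylation in percentage points (y axis) against the wild-type mean in percent (x axis) for the 53 tiles of 1000 bp, coloured by gene with the number of tiles in brackets. Dashed lines mark the 10 points required for a call; no tile reaches them, and the largest differences, 7.80 points in Dnmt3a and 7.20 in Tet3, belong to tiles that are not fully methylated.

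The largest tile difference lay in Dnmt3a. The tile from 3871001 to 3872000 held 8 CpGs within 164 bp, from 3871756 to 3871918, and sat 64.8 kb after the distal start and 19.7 kb before the internal stretch. It was one of 6 tiles between 20% and 80%. Over its pooled reads the level was 39.4% in targeted library 1 (95% exact interval 36.5% to 42.4%) and 36.6% (33.9% to 39.3%) in targeted library 2. It was 26.3% (23.8% to 28.8%), 31.0% (28.4% to 33.7%) and 33.4% (30.6% to 36.2%) in wild-type libraries 1 to 3. These intervals cover counting error only and are too narrow even for that. A read counts at each CpG it covers, and PCR copies are not independent molecules. Both targeted libraries were above all wild-type libraries, but the interval of targeted library 2 overlapped that of wild-type library 3. With each of the 8 CpGs weighing the same, the targeted libraries were at 37.2% and 31.3%, against 23.7%, 26.7% and 30.4% in wild type. That difference was 7.3 points (exact permutation p = 0.2). The pooled difference, 7.80 points between 38.0% ± 2.02 (SD, n = 2) and 30.2% ± 3.6 (SD, n = 3), gave an edgeR p of 0.0683 and an adjusted p of 0.793. It stayed between 5.84 and 9.38 points when single libraries were left out. Over all the settings tried its adjusted p ranged from 0.53 to 1.

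Within the tile the CpGs differed more from each other than the groups did. The CpG at 3871865 was at 2.73% in the mean of all libraries, from 37 to 60 reads each, and lay 12 bp after the CpG at 3871853, at 43.8%, and 53 bp before that at 3871918, at 42.2%. The CpG at 3871853 had the largest difference of a Dnmt3a CpG with at least 30 reads in every library. It was at 59.3% and 46.7% in the targeted libraries, against 36.0%, 35.6% and 41.2% in wild type, a difference of 15.4 points (edgeR adjusted p = 0.876). Targeted library 1 was above all wild-type libraries at 6 of the 8 CpGs and targeted library 2 at 4, with 3 in common. Both were above at 8.99% of tested window CpGs and at 10.6% of tested autosomal CpGs. The tile was picked for its large difference, so these counts only describe it. Among the wild-type libraries the first CpG, 3871756, ranged from 36.1% to 65.3%, so wild-type library 3 was the highest of all 5 there.

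**Figure D4:**
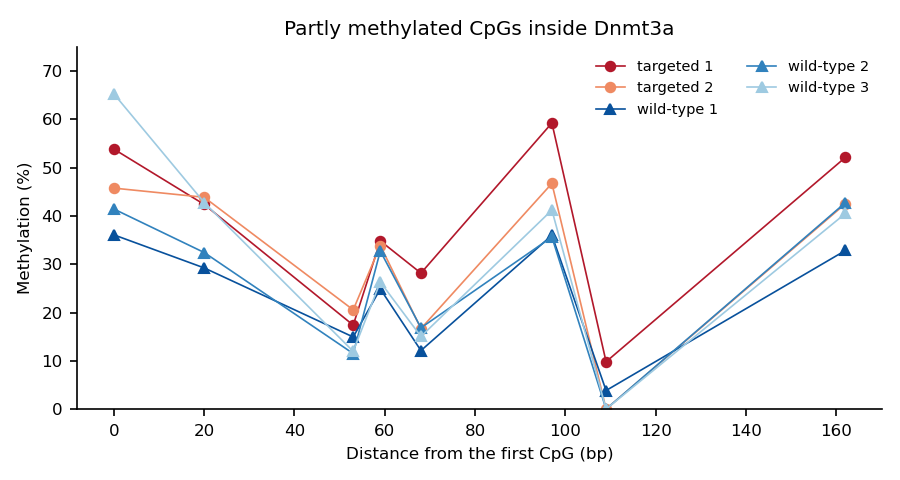
CpG methylation in percent (y axis) at the 8 CpGs of the partly methylated Dnmt3a tile against distance from the first of them in bp (x axis). Each line is 1 library, red and orange for targeted, blue for wild type; all lines share the same rises and falls, with the CpG at 109 bp the lowest of the 8 in every library (0% to 9.80%), and targeted library 1 is the highest at the last 5 CpGs.

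The second largest tile difference lay in Tet3, from 83389001 to 83390000, beside the stretch at the Tet3 start. Its 3 CpGs were at 90.0% and 85.6% in the targeted libraries, against 82.4%, 81.8% and 77.5% in wild type. Each library had 120 to 286 reads summed over the 3 CpGs. The groups did not overlap, and the difference of 7.20 points gave an edgeR p of 0.0435 and an adjusted p of 0.789. Another Tet3 tile, 83318001 to 83319000 in the gene body, had 14 CpGs at 97.5% and 97.3% against 96.8%, 95.6% and 95.2% (1.53 points, with an edgeR p of 0.0476 and an adjusted p of 0.789). The lower tile was in Dnmt3a, from 3865001 to 3866000, with 3 CpGs at 92.1% and 92.9% against 94.9%, 96.8% and 97.1%, a difference of -3.76 points with an edgeR p of 0.0235 and an adjusted p of 0.789. These 3 tiles passed no adjusted threshold.

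In the other genes the largest tile differences were smaller. They were 1.20 points in Dnmt1 (20725001 to 20726000), 2.71 points in Dnmt3b (153473001 to 153474000), 1.46 points in Tet1 (62328001 to 62329000) and -2.89 points in Tet2 (133197001 to 133198000). With single libraries left out the Dnmt1 tile ranged from 0.703 to 1.68 points and the Dnmt3b tile from 0.511 points, without wild-type library 3, to 4.17 points. In each of these tiles at least 1 targeted library lay within the range of the wild-type libraries, except Tet2, at 92.1% and 90.7% against 94.3%, 95.6% and 92.9%.

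Besides those named, 3 more tiles lay between 20% and 80%. The last Dnmt3a tile, from 3917001, had 5 CpGs. Over pooled reads it was at 77.5% and 59.7% in the targeted libraries, with a wild-type range of 58.1% to 67.8%. Its CpG at 3917997 stood at 8.57% in the mean of all libraries, and at 11.4% and 10.6% in the targeted ones. That CpG supplied 123 of the tile's 729 reads in targeted library 1 and 208 of 590 in targeted library 2. Pooling therefore weighed it unequally, and the pooled gap between these libraries is not one in methylation alone. At the tile's other CpGs they were at 84.4% to 95.6% and at 73.4% to 98.8%. A Tet1 tile from 62329001 was at 51.4% and 50.1% against 49.6%, 47.2% and 57.8%. The Dnmt3b tile from 153512001 was at 64.3% and 64.4% against 63.2%, 63.1% and 63.0%, where the groups did not overlap and differed by 1.23 points. Its CpGs at 153512309 and 153512358 differed between strands, as described below.

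Single CpGs were tested in the same way, with a difference of at least 25 points required. Of the 766, 434 could be tested, and the other 332 were at 0% in every library (331) or at 100% in every library (1). By edgeR and by limma 0 were called, against a background of 0.00264% of 757413 CpGs called higher and 0.00621% lower by edgeR, and of 0.00158% and 0.0033% by limma. At an unadjusted edgeR p under 0.05, 6 were higher (background 2.29%) and 2 were lower (background 0.679%), and all 8 had an adjusted p of 0.876. By limma 17 of the 434 had an unadjusted p under 0.05 in either direction (background 5.24%). The targeted pair lay above every wild-type library at 39 of the 434 CpGs (8.99%, background 10.6%) and below at 20 (4.61%, background 4.99%). Of the 8, 6 were in Tet3, 1 in Dnmt3a and 1 in Dnmt1. The Dnmt3a one, 3891713, is 31 bases before the internal start and the last capital pair of the internal promoter sequence above. It was at 2.06% and 4.04% in the targeted libraries, from 2 and 4 methylated reads beside 95 unmethylated ones each. In all wild-type libraries it was at 0% (0 of 141, 93 and 128 reads). The Tet3 CpG at 83391303 bounds the stretch at the start and was at 10.4% and 2.06% against 1.52%, 1.03% and 0%. At the edge of the upstream Tet3 stretch, 131 bp before it, the CpG at 83405229 was at 15.4% and 17.0% against 20%, 29.0% and 31.9%, from 30 to 47 reads (edgeR adjusted p = 0.876).

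Some partly methylated values were not intermediate on either strand. Of the 24 window CpGs between 20% and 80%, 9 were measured on both strands in all libraries, and 5 of these differed between strands by at least 50 points. The share over the autosomes was 40.5%, 7221 of 17833, so 5 of 9 is read only as a description of these CpGs. In Dnmt1 the CpG at 20725150 was at 93.9% to 97.3% on the forward strand and at 0% to 3.45% on the reverse strand over the 5 libraries. Its neighbour 50 bp on, at 20725200, was the reverse, at 0.813% to 3.25% and 94.3% to 100%. Dnmt3b had the same kind of pair 49 bp apart, 153512309 at 95.5% to 98.0% forward and 1.72% to 13.6% reverse, and 153512358 at 0% to 5.94% forward and 92.6% to 100% reverse. In Tet1 the CpG at 62329056 was at 0% forward in all libraries and at 66.3% to 81.6% reverse. Shortly before it, the CpG at 62329009 differed the other way, at means of 76.4% forward and 33.9% reverse. That gap of 42.5 points fell under the 50 points required, so it is not among the 5.

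The Dnmt1 and Dnmt3b pairs lay 50 and 49 bp apart, and the read length was 50 bp. Of 3638 autosomal CpGs split in this way with the forward strand higher, 3171 (87.2%) had an oppositely split partner within 50 bp, at a median distance of 48 bp. Partners were searched only up to 50 bp, so the search itself sets that upper limit. Cytosines filled in at the cut ends during library end repair are read as unmethylated where a read reaches the far end of a short fragment, and their part in these values was not tested. Per the protocol, fragments were size-selected to 150 to 400 bp, and whether shorter ones were sequenced was not tested. The merged levels of these Dnmt1, Dnmt3b and Tet1 CpGs, 38.2% to 54.8% in the mean of all libraries, are averages of strands that differ, 1 of them near 0%. The same limit holds for the tiles that contain them, from 20725001 in Dnmt1, 153512001 in Dnmt3b and 62329001 in Tet1. The Dnmt3a tile differed from them: its CpGs at 3871776 and 3871815 were measured on both strands, with means of 37.5% forward and 39.4% reverse, and of 29.8% and 31.1%. At 3871776 the forward strand was at 44.5% and 41.6% in the targeted libraries, against 31.7%, 28.6% and 40.8% in wild type. Its reverse strand was at 40% and 47.0% against 26.1%, 38.6% and 45.3%, so the groups overlapped on that strand.

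**Figure D5:**
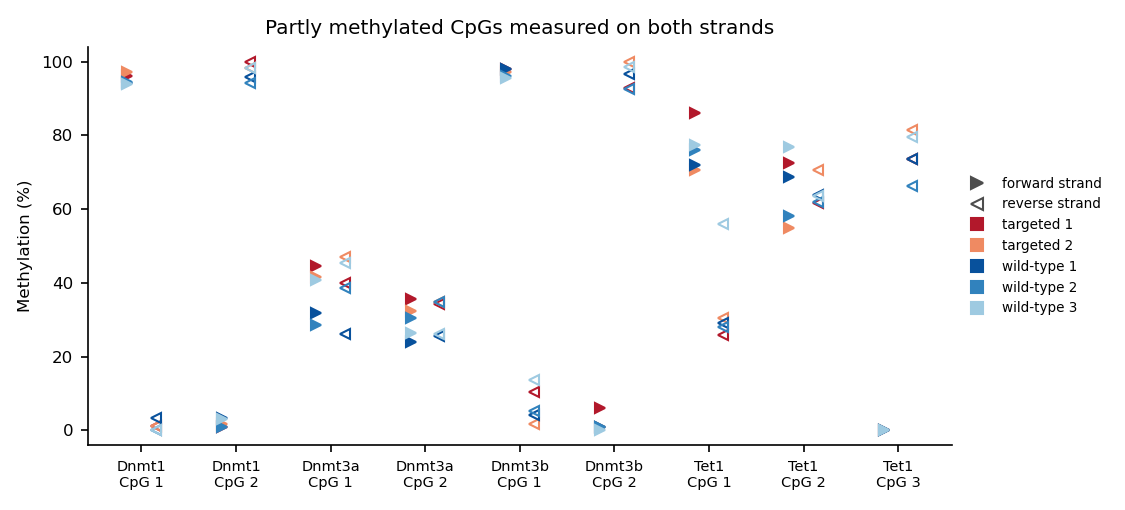
CpG methylation in percent on the forward (filled) and reverse (open) strand for the 9 partly methylated CpGs measured on both strands, in genome order within each gene. Colours are the 5 libraries; the Dnmt1 and Dnmt3b CpGs and the third Tet1 CpG split into values near 0% and values of 66.3% to 100%, while the Dnmt3a CpGs lie at 24.0% to 47.0% on both strands.

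Tet1 held a mixed group of CpGs 21 to 22 kb into the gene. At 62328445 and 62328480 the means were 1.18% and 4.87%, from 16 to 52 reads. Less than 1 kb further, 62328975 was at 79.5%, 62329009 at 50.0% and 62329050 at 65.6%. The level at 62329009 is an average of strands that differ, as given above. The CpG at 62328480 was at 17.6% and 4.76% in the targeted libraries, against 0%, 0% and 1.92% in wild type, where 17.6% is 3 of 17 reads (edgeR adjusted p = 0.876). Tet2 had a single partly methylated CpG, 133196749, at 84.6% and 78.4% against 72.7%, 70.2% and 75.9%, a difference of 8.63 points (edgeR adjusted p = 0.876).

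Over the 24 partly methylated CpGs as a class, the mean was 60.7% and 58.2% in the targeted libraries, against 54.3%, 55.5% and 57.4% in wild type. The autosomal class of 68755 CpGs stood at 58.3% and 52.5% against 52.0%, 51.3% and 52.0%. In both, targeted library 1 was the highest library. The window class differed by 3.71 points and the autosomal class by 3.61 points.

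No well-covered position of these genes was missing from the targeted libraries. Strand positions read 50 times or more in each wild-type library numbered 727, and 0 of them lacked an entry in a targeted library. Of these, 165 were in Tet3, the member on chromosome 6. Over the autosomes 368 of 864875 (0.0425%) lacked an entry in both targeted libraries.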

How the data were processed

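CpG methylation was measured by ERRBS in 2 targeted and 3 wild-type libraries of LSK cells. The targeted gene is not reported here. Per the labels' protocols, DNA was cut with MspI, size-selected to 150 to 400 bp, bisulfite-converted and sequenced as single reads of 50 bp. The submitters' processing notes name Bismark, with no version, and the mm9 (NCBIM37) build. Per the file headers, the authors' deposited tables hold 1 entry per CpG and strand: a coverage count and the percent of it read as C and as T. Entries start at 10 reads.

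Methylated reads were recovered as coverage times the percent read as C (99.97% whole within 0.01). The highest 0.1% of entries by coverage were left out per library, strands were merged, and autosomal CpGs present in all 5 libraries were kept. Total coverage per library ranged from 122015958 to 151634492, with a median of 88 to 113 reads per CpG. Differences are the targeted minus the wild-type mean. Gene means were compared by an exact two-sided permutation test on the absolute difference, whose smallest p is 0.1. Because the groups are unequal in size, it can exceed 0.1 for groups that do not overlap. Tiles (reads pooled) and CpGs were tested with edgeR 4.0.16 (quasi-likelihood, a factor per library, common dispersion; R 4.3.3) over the whole autosomal table, after a test on simulated data; limma 3.58.1 was an alternative, as were the coverage limits, tile size, CpG minimum, weighting, window width, replicate number and each library left out. Described per gene were its stretches, its tiles between 20% and 80%, the tile and the CpG with the largest difference and every call; CpGs named beyond these were picked with their values in view. The members and lists were chosen with earlier results of these data known. Other genes of the methylation pathway were not analysed here, since no mm9 gene positions were at hand, and likeness between members is not given, since 5 libraries are too few for a correlation.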

Additional observations from a re-analysis of the deposited data

How the results depend on the processing

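In the 6 windows the counts of tiles and CpGs called by edgeR or limma were 0 in each direction under every alternative run, including each library left out; the lowest adjusted p was 0.368 for a tile and 0.595 for a CpG, both without targeted library 2. Fits without a targeted library leave 1 in that group, so their spread comes from the wild-type libraries alone and the lone library is assumed to vary like them. The mean differences of Dnmt3a, Dnmt3b and Tet3 stayed positive throughout but not equal in size. With tile means they were 1.01 points in Dnmt3a, 0.0086 in Dnmt3b and 1.17 in Tet3 (Tet1 1.14). With single libraries left out Dnmt3a ranged from 0.13 to 0.528 points, Dnmt3b from 0.013 to 0.14 and Tet3 from 0.25 to 0.476. With the window widened Dnmt3b was at 0.0313 points and Tet1 at 0.0839 points. Those of Dnmt1, Tet1 and Tet2 did not keep their sign. Dnmt1, at -0.000708 points, became 6.19 points with CpGs weighted by reads, 0.249 points with the window widened by 10 kb and 0.0867 points with the mean of tile means, and -0.229 to 0.125 points with single libraries left out. Tet2, at 0.167 points, became -0.0345 points with tile means. Tet1, at 0.339 points, ranged from -0.207 to 0.947 points with single libraries left out, reversing without targeted library 1 or wild-type library 2. The Tet1 tile from 62328001 ranged from -1.02 to 3.88 points (-0.966 without targeted library 2, -1.02 without wild-type library 3). The cause was not tested. Weighting by reads also raised the differences of Dnmt3a to 3.01, Dnmt3b to 3.99, Tet1 to 0.528, Tet2 to 1.84 and Tet3 to 3.71 points (exact permutation p 0.5 to 0.8). Leaving out CpGs whose strands differ by 50 points, chosen after seeing the data, reversed no difference.

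No pairing by replicate number was seen: same-numbered libraries correlated at 0.00462 and 0.0328 across tiles, and differently numbered ones at -0.0328 to 0.0284. The values of targeted library 2 are those of targeted library 1 with the sign reversed. They are therefore not separate checks, and a pairing is not excluded. With the replicate block the differences were 0.125 points in Dnmt1 (reversed), 0.344 in Dnmt3a, 0.0130 in Dnmt3b, 0.947 in Tet1, 0.118 in Tet2 and 0.305 in Tet3, and 0 tiles or CpGs of the windows were called.

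With 2 targeted libraries no permutation p can go below 0.1, or below 0.25 without a targeted library and 0.333 without a wild-type library. Thinly covered CpGs, above all in Tet1, limit the differences that could be seen.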
